A study of Rattus norvegicus with 43 samples.

Results

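The livers of rats given Targretin were compared with the livers of rats given diet only. Targretin (bexarotene) is a synthetic ligand of the retinoid X receptors. The comparison was chosen by the sample titles alone: the 3 arrays titled Targretin liver against the 4 titled diet liver, 7 of the 43 arrays of the series, with all 8740 probe sets that are not controls. The rats were female Sprague-Dawley, an outbred laboratory strain, and treatment ran for 7 days from 100 days of age. The Targretin dose was 60 mg per kg body weight, by gavage. The labels name no gavage or vehicle control, so gavage and agent cannot be told apart. Whether each array held RNA of a different rat is not stated either, so the p-values measure the spread between arrays, which may be technical. Livers of rats given 9-cis retinoic acid (9cRA, 100 mg per kg diet, 4 arrays) or 4-hydroxyphenylretinamide (4HPR, 782 mg per kg diet, 4 arrays) shared the same fit and appear below only as values.

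Retinoid X receptors act in pairs with other nuclear receptors, among them the receptors for fatty acids (PPARs), oxysterols (LXRs), bile acids (FXR), drugs (CAR and PXR), thyroid hormone and retinoic acid. Some of these pairs respond to a ligand of the retinoid X receptor alone. In the clinic bexarotene is known for raised blood triglycerides and for lowering thyroid hormone. The liver makes most plasma proteins and carries transporters for bile acids, sugars, metals and amino acid derivatives. The changes described here are mostly those outside the well-known rise of lipid genes.

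All values are Affymetrix MAS5 signals, a background-corrected brightness on a linear scale that the authors had scaled to a common mean. The arrays had similar median signals, 353 to 370 on the Targretin arrays and 339 to 391 on the diet arrays. Differences are log2 values, Targretin minus diet, taken after adding 38.1 to each signal, with standard errors (SE) from limma. The added constant understates the change of dim genes. An adjusted p (limma, Benjamini-Hochberg over 6084 tested probe sets) under 0.05 counts as passing, and "rose" and "fell" are used only for passing differences. The liver label fits the hepatocyte markers: their summed signal over 14 genes was 454690 to 569410 on the Targretin arrays and 499860 to 584910 on the diet arrays. Of these markers 13 did not pass and 1, Tdo2, fell.

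Of 6084 probe sets tested, 678 passed (11.1%), 297 higher (4.88%) and 381 lower (6.26%). Without Targretin array 2 the count was 420. With 1 probe set per gene, 369 of 3567 genes passed (10.3%), 165 higher (4.63%) and 204 lower (5.72%), and the median difference was -0.01. The shares of all genes, 4.63% and 5.72%, are the background against which the lists below stand. The plot of difference against signal shows that rises reached larger sizes than falls among bright probe sets.

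**Figure D1:**
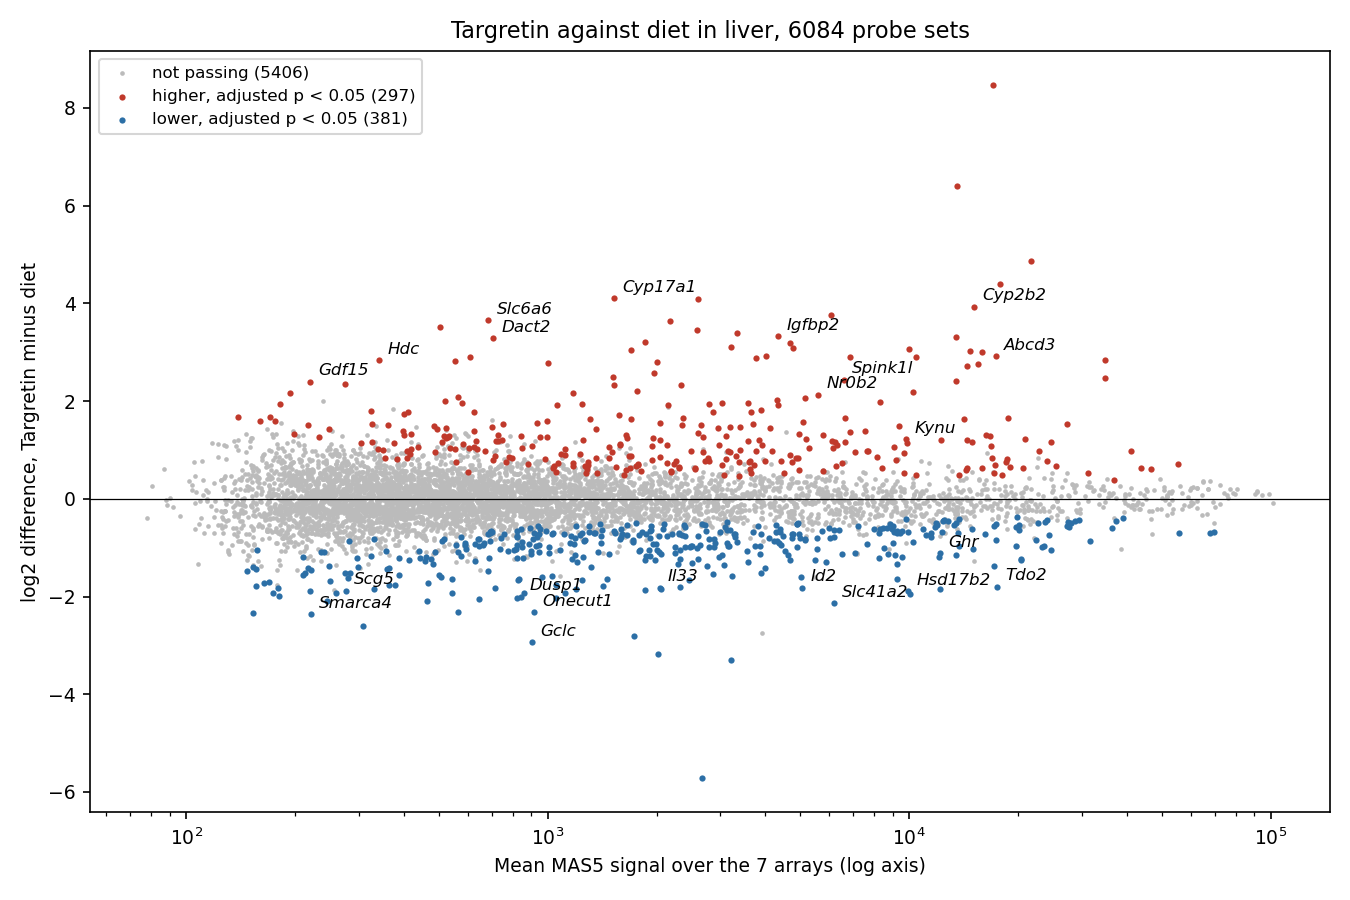
Each point is 1 of 6084 probe sets; the horizontal axis is the mean MAS5 signal over the 7 arrays (log axis) and the vertical axis the log2 difference, Targretin minus diet. Red points (297) are higher and blue points (381) lower at an adjusted p under 0.05, grey points did not pass; Slc6a6 stands near 3.66 and Gclc near -2.93.

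Among the solute carriers tested, the largest rise was that of the taurine carrier. Of 100 solute carriers tested, 3 rose, 7 fell and 90 did not pass, with a median of 0.00. Without Targretin array 2 these counts were 1 and 4. Slc6a6 brings taurine, an amino acid derivative used to conjugate bile acids, into cells. Its signal was 1642, 1894 and 925 on the 3 Targretin arrays and 127, 50.1, 41.9 and 115 on the 4 diet arrays. Every Targretin array lay far above every diet array, and all diet values were below the level used to filter dim probe sets (212 to 258 on the diet arrays). The rise was 3.66 ± 0.58 (SE; adjusted p = 0.00041). The short stretch below holds the match to AGGTCA nearest to the start site that the RefSeq promoter table (GRCr8) uses for Slc6a6. AGGTCA is the half-site that retinoid X receptors and their partners bind, and its letters are in capitals. The stretch is at chr4:125752392-125752421, plus strand, and the match begins 98 bases before that start site, inside the span that RefSeq annotates for the gene (from 125752340).
Slc6a6: aacagacacgcgAGGTCAgggagaagccgc

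The table gave exactly 1 window for 2766 of the genes tested, and the 250 bases before the start were searched for AGGTCA on both strands. It was present for 341 of them (12.3%), for 26 of 132 genes that rose (19.7%) and for 23 of 165 that fell (13.9%). These shares describe the letters only; no binding was measured.

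The solute carriers that fell included carriers of metals, sugars and organic anions. Slc41a2, a magnesium carrier, read 2279, 1787 and 2138 with Targretin against 9121, 7878, 9668 and 10401 with diet, a fall of 2.14 on the log2 scale. The groups did not overlap, which held for 24.6% of all probe sets tested. Slc40a1 encodes ferroportin, the iron exporter. It read 1336, 1445 and 1553 with Targretin and 4138, 2977, 3387 and 3411 with diet, and fell by 1.24 ± 0.18 (SE). Its second probe set fell by 1.32. Tfrc, the transferrin receptor that takes up iron, read 82.8 to 138 with Targretin, dim on all 3 arrays, and 393 to 738 with diet. It fell by 1.85 ± 0.50, but did not pass once diet array 2, Targretin array 1 or Targretin array 2 was left out.

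The liver's facilitative glucose carrier and the glucose-6-phosphate carrier were also lower. Slc2a2 (GLUT2) read 7366, 6688 and 8207 with Targretin against 10657, 11818, 13326 and 11431 with diet. It fell by 0.67 ± 0.15. Slc37a4, which carries glucose-6-phosphate into the endoplasmic reticulum, fell by 0.78 ± 0.19 on 1 of 2 probe sets, and did not pass without Targretin array 1 or 2. Slc37a4 stood at 11078 on diet array 3 and between 5918 and 6807 on the other diet arrays.

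Bile acid transporters moved in different directions. Abcb11, the bile salt export pump of the canalicular membrane and a known FXR target, read 14822, 13730 and 14534 with Targretin against 5926, 6410, 5929 and 7613 with diet. All Targretin arrays were close together and well above the diet arrays, a rise of 1.15 ± 0.16 (adjusted p = 9e-05). The sodium-dependent uptake carrier Slc10a1 (NTCP) overlapped between groups, 16353 ± 1974 (SD, n = 3) against 15363 ± 1355 (SD, n = 4), with a difference of 0.09 ± 0.15 (limma adjusted p = 0.79). Slco1a1, an uptake carrier for organic anions, fell by 0.83 ± 0.18, from 1959 ± 324 to 1082 ± 154. Slc22a7, an organic anion carrier, rose by 0.53 ± 0.13 on 1 of 2 probe sets and did not pass without Targretin array 2. Abcc2, the canalicular exporter of conjugates, fell by 0.81 ± 0.22 and did not pass when diet array 4, Targretin array 2 or Targretin array 3 was left out. Cyp7a1, the rate-limiting enzyme of bile acid synthesis, was examined after these values were seen. It overlapped widely, 2586 to 6628 with Targretin and 3288 to 6994 with diet, a difference of -0.32 ± 0.49 (limma adjusted p = 0.76).

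Of 10 ABC transporters tested, 2 rose and 1 fell. The second rise was Abcd3, a half-transporter of the peroxisomal membrane that imports fatty acyl groups. It read 25845, 31045 and 46852 with Targretin against 4734, 3950, 4497 and 4407 with diet, a rise of 2.92 ± 0.50. A second probe set did not pass (0.65, adjusted p = 0.17), so the probe sets disagree on the size. Atp1b1, the beta subunit of the sodium pump, read 5147, 4837 and 6071 with Targretin against 2223, 2010, 1675 and 1806 with diet. It rose by 1.46 ± 0.20, and by 1.31 on its other probe set. Aqp9, the hepatocyte channel for glycerol and urea, read 4559, 3825 and 4317 against 8724, 9309, 10442 and 8402, and fell by 1.11 ± 0.12. Of 58 ion channel genes, 1 rose and 1 fell.

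**Figure D2:**
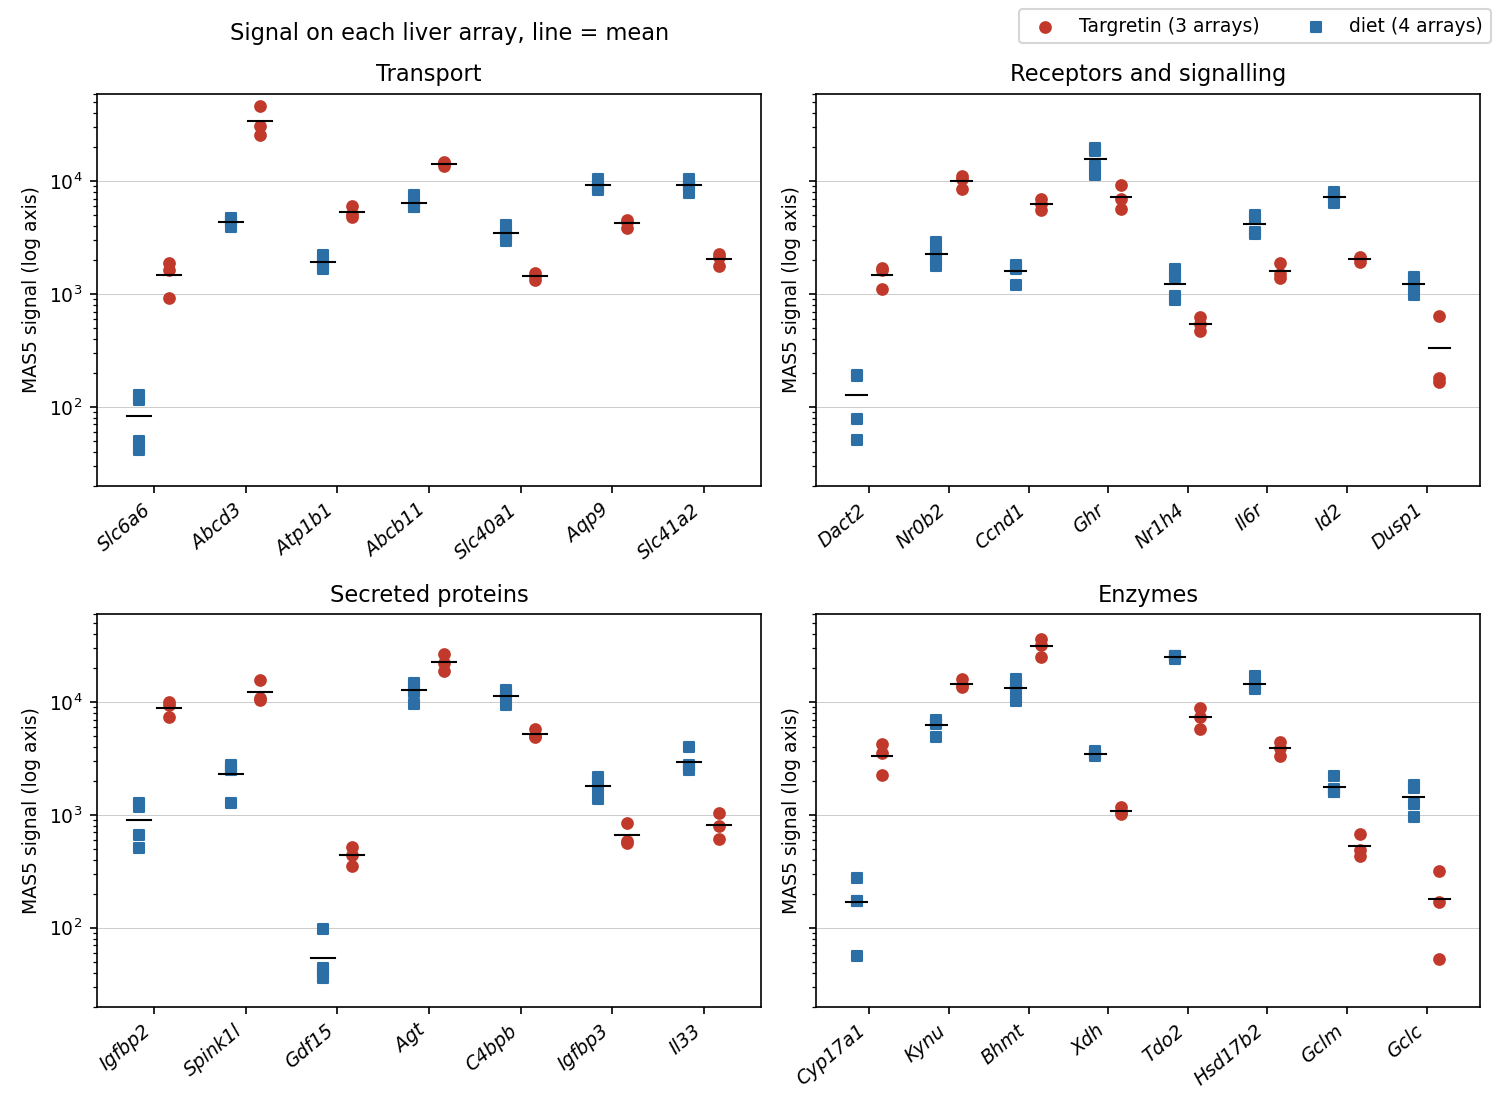
MAS5 signal (log axis) on each of the 3 Targretin arrays (red circles) and 4 diet arrays (blue squares) for genes of transport, signalling, secretion and metabolism, with a line at each group mean. The groups do not overlap for any gene drawn, but all were picked from genes that passed. Over all probe sets tested, 24.6% did not overlap. The 3 Targretin values of Slc6a6 are 925 to 1894 and the 4 diet values 41.9 to 127.

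Nuclear receptors were among the genes that changed. Of 28 receptors and partners tested, 2 rose and 4 fell, with a median of 0.13. Without Targretin array 1 or 2 these counts were 1 and 2, and leaving out diet array 1, 2 or 4 also left 1 rise. Nr0b2 (SHP) is a receptor without a DNA-binding domain that represses other nuclear receptors. It read 10468, 11056 and 8483 with Targretin against 1768, 2921, 2475 and 1997 with diet. The rise was 2.13 ± 0.22 (adjusted p = 6.5e-06), and both other probe sets rose, by 2.58 and 1.53. The bile acid receptor FXR itself, Nr1h4, read 476, 539 and 630 against 885, 1681, 1428 and 971, and fell by 1.09 ± 0.21. The receptor was lower on the arrays where Nr0b2 and Abcb11 were higher. Nr1d2 (REV-ERB beta, a clock repressor) fell by 0.90 ± 0.18. Nr3c1, the glucocorticoid receptor, fell by 0.87 ± 0.22 and Ncoa4, a ferritin receptor and coactivator, by 0.88 ± 0.22, and neither passed without Targretin array 1 or 2. Nr3c1 did not pass on a second probe set (0.47). Ppara, the fatty acid receptor, had a difference of 0.91 ± 0.37 that did not pass (adjusted p = 0.14), with 3 of 4 diet arrays below the filter level. Ppard differed by 0.44 (adjusted p = 0.085) and did not pass.

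The growth hormone receptor was lower. Growth hormone acts on hepatocytes through its receptor and STAT5b, and drives the plasma complex of IGF-1, Igfbp3 and the acid-labile subunit. Of 21 genes of growth hormone, prolactin and STAT signalling, 0 rose, 3 fell and 18 did not pass. Over all genes tested, 3198 of 3567 did not pass. The receptor Ghr read 6955, 5672 and 9248 with Targretin against 19906, 13675, 11260 and 18503 with diet, and fell by 1.11 ± 0.23 (adjusted p = 0.0037). The diet arrays spread over a wide range, yet all stood above the Targretin arrays. Its other probe sets were at -0.78 (adjusted p = 0.17) and -1.07 (adjusted p = 0.059). The prolactin receptor Prlr fell by 1.29 ± 0.32 on 1 of 5 probe sets, and did not pass without Targretin array 1 or 3. The brightest Prlr probe set, which the list count uses, did not pass (-0.76, limma adjusted p = 0.25). Prlr is therefore not among the 3 falls counted above. Onecut1 (HNF6), a liver transcription factor that growth hormone induces, read 399, 434 and 70.9 against 1370, 1222, 1452 and 1466. It fell by 2.32 ± 0.57 and did not pass without Targretin array 3, which carried its lowest value. Stat5b did not pass (0.56, adjusted p = 0.074), and neither did Cish, a STAT5 target (-0.75, adjusted p = 0.14).

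The plasma carriers of IGF-1 split. Igfbp3 read 562, 591 and 847 with Targretin and 1713, 2145, 1370 and 2012 with diet, and fell by 1.39 ± 0.20. On its other, dimmer probe set the groups overlapped and the difference did not pass (-1.12, limma adjusted p = 0.12). Igfals, the acid-labile subunit, fell by 0.59 ± 0.15 on 1 of 3 probe sets and did not pass without Targretin array 2. Igfbp2, which the fed adult liver makes at low level, read 7381, 9908 and 9484 against 1176, 660, 1277 and 511. It rose by 3.33 ± 0.25 (adjusted p = 1.2e-07), and its other probe sets rose by 3.11 and 2.89. Igfbp1 rose by 1.57 ± 0.45, but diet array 3 (7096) lay inside the Targretin range of 5307 to 9400, and 5 of the 7 fits without 1 array did not pass. IGF-1 itself gave no single direction: of 5 Igf1 probe sets, 1 rose by 1.11, 1 fell by 0.81 (adjusted p = 0.046) and 3 did not pass. The rise (adjusted p = 0.047) did not pass in 6 of the 7 fits without 1 array. The brightest of them read 16928 with Targretin and 15158 with diet (0.18, adjusted p = 0.69).

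Among the regulators of MAP kinases 1 gene passed. Of 20 genes of MAP kinase modules and dual specificity phosphatases, only Dusp1 passed. Dusp1 is an inducible nuclear phosphatase that switches MAP kinases off. It read 168, 181 and 644 with Targretin against 1411, 984, 1341 and 1180 with diet. Targretin array 3 was higher than the other 2, and the groups still did not overlap. Dusp1 fell by 2.0 ± 0.44 (adjusted p = 0.0062). Only 1 of the 3 Targretin arrays was above the filter level for this probe set. Of both other probe sets, 1 fell by 2.31 and 1 fell by 1.61. Of 27 immediate early and stress transcription factors, 1 rose and 1 fell. The 250 bases before the RefSeq start of Dusp1 (GRCr8, chr10:17184603-17184852, plus strand) are shown because they hold TGACGTCA, the full cyclic AMP response element, beginning 124 bases before the start, and an E-box CACGTG, both in capitals.
Dusp1: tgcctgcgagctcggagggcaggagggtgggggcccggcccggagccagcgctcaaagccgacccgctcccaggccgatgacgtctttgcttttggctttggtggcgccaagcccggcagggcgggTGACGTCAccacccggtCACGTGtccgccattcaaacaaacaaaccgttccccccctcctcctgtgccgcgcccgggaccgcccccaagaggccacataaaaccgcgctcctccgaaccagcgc

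Searched on both strands, TGACGTCA was present in 65 of the 2766 windows (2.35%), in 5 of 132 genes that rose (3.79%) and in 7 of 165 that fell (4.24%). The E-box was in 237 of 2766 (8.57%), in 11 of the genes that rose (8.33%) and in 12 of those that fell (7.27%).

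Id2 and a set of receptors followed. Id2, an inhibitor of basic helix-loop-helix factors and a target of BMP signalling, read 1908, 2139 and 2088 with Targretin and 8073, 7490, 6450 and 7251 with diet. It fell by 1.82 ± 0.19 (adjusted p = 5.6e-06), the single passing gene of 21 in TGF-beta, activin and BMP signalling. Lgr4, a receptor for R-spondins that strengthens Wnt signalling, fell by 1.84 ± 0.30, from 1740 ± 431 to 478 ± 199. Dact2, a cytoplasmic modulator of Wnt and TGF-beta signalling, rose instead. It read 1691, 1622 and 1120 with Targretin against 188, 78.6, 191 and 51.1 with diet, a rise of 3.29 ± 0.37 (adjusted p = 1.7e-05). Its diet values were all below the filter level. The Dact2 window also holds 1 match to AGGTCA, read on the opposite strand as TGACCT in capitals. The stretch is at chr1:63863181-63863210 (GRCr8, minus strand), and the match begins 100 bases before the start site used in the table. As for Slc6a6, it lies inside the span that RefSeq annotates for the gene (63854182 to 63864153).
Dact2: gggcggccgctgTGACCTggggcgtcgcaa

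Receptors of hormones and nucleotides changed both ways. Of 19 G protein coupled receptors of liver and hormones, 3 rose and 1 fell; without Targretin array 1 only 1 rose. The glucagon receptor Gcgr read 3417, 3423 and 2830 with Targretin against 2004, 2157, 2020 and 2088 with diet, and rose by 0.63 ± 0.14. The vasopressin receptor Avpr1a rose by 1.18 ± 0.28 and did not pass without Targretin array 1. The nucleotide receptor P2ry2 rose by 1.0 ± 0.23, although Targretin array 3 (2888) lay below diet array 4 (2914), and it did not pass without Targretin array 1 or 2. The alpha-1B adrenergic receptor Adra1b read 1515, 1522 and 1243 against 2763, 2941, 2689 and 3089. It fell by 0.99 ± 0.14 (adjusted p = 0.00015). Ptger3, a prostaglandin E2 receptor, fell by 2.06 ± 0.40 on 1 of 2 probe sets, with only 1 of the 3 Targretin arrays above the filter level. Gnai2, an inhibitory G protein subunit, rose by 0.75 ± 0.17 on 1 of 3 probe sets. Pde3b, the insulin-activated phosphodiesterase of cyclic AMP, fell by 0.95 ± 0.21.

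Several single genes of signalling rose by large amounts. Ccnd1, cyclin D1 of the early cell cycle, read 6256, 6901 and 5567 with Targretin against 1736, 1198, 1672 and 1803 with diet. It rose by 1.95 ± 0.22 (adjusted p = 1.9e-05) and 3 of its 5 probe sets passed, all higher. In the cell cycle list 2 of 38 genes rose (1 in 6 of the 7 fits without 1 array) and 1 fell. Over all genes tested 4.63% rose and 5.72% fell. Paqr7, a membrane receptor for progestins, rose by 2.20 ± 0.21, from 670 ± 83.6 to 3218 ± 404. Stk39 (SPAK), a kinase of cation-chloride cotransport, rose by 2.79 ± 0.54 on 1 of 2 probe sets. Flt1, a VEGF receptor, rose by 1.74 ± 0.32, from 184 ± 64.1 to 689 ± 174, with only 1 of the 4 diet arrays above the filter level. Hdc, which makes histamine from histidine, rose by 2.84 ± 0.47 from diet values of 29.0 to 153, all below the filter level. Sipa1l1, a regulator of Rap GTPases, fell by 1.98 ± 0.50 to a level at which all 3 Targretin arrays were dim (24.1 to 58.1). It did not pass without Targretin array 3, and its other probe set did not pass (-0.71, limma adjusted p = 0.12).

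Few of the cytokine genes passed. Of 35 chemokines, cytokines and receptors tested, 0 rose, 3 fell and 32 did not pass, with a median of 0.03. Fits without 1 array gave 2 to 3 falls. Over all genes tested 4.63% rose and 5.72% fell, so these counts are too small to give the list a direction. Il33, an alarmin held in the nucleus, read 1048, 606 and 795 with Targretin against 3956, 2641, 2760 and 2477 with diet, a fall of 1.82 ± 0.23 (adjusted p = 4.9e-05). Il6r, the receptor through which interleukin 6 drives the acute phase response, read 1384, 1520 and 1881 against 3420, 5068, 4611 and 3562. It fell by 1.36 ± 0.22. Il1b fell by 1.03 ± 0.27 on 1 of 2 probe sets and did not pass without Targretin array 1 or 3. Of 25 acute phase plasma proteins, only 1 fell and 0 rose, and of 18 interferon-induced genes 0 passed (limma), with 1 at an unadjusted p under 0.05.

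Most of the secreted proteins tested did not pass, which also held for 3198 of all 3567 genes tested. Of 30 serpins and other protease inhibitors, 1 rose, 5 fell and 24 did not pass, and without Targretin array 1 none of the 5 falls passed. Spink1l, a Kazal-type trypsin inhibitor, read 15674, 10792 and 10454 with Targretin against 2778, 2590, 2486 and 1286 with diet. It rose by 2.44 ± 0.29 (adjusted p = 2.9e-05). The falls were small: Pzp, an alpha-2-macroglobulin type inhibitor, by 0.60 ± 0.15, Serpina4 by 0.46, Serpina3n by 0.49, Serping1, the C1 inhibitor, by 0.49 and cystatin C, Cst3, by 0.66. A second probe set of Pzp fell by 1.78 and one of Cst3 by 1.06.

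Of 18 complement genes, 3 fell, 0 rose and 15 did not pass. C4bpb, the beta chain of the C4b-binding protein, read 5716, 5022 and 4860 with Targretin and 9391, 12860, 11909 and 11398 with diet, a fall of 1.12 ± 0.12 (adjusted p = 1.5e-05). C8b, a chain of the membrane attack complex, fell by 0.62 ± 0.14, and by 0.87 on its other probe set. Both complement genes were separated on every array, as were 24.6% of all probe sets tested. Of 21 coagulation genes, 1 fell.

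Among 31 hormone carriers, hepatokines and plasma growth factors, 4 rose and 4 fell; without Targretin array 2 only 2 fell. Gdf15, a stress-induced circulating factor that reduces food intake, read 521, 356 and 441 with Targretin against 44.4, 96.5, 35.9 and 40.9 with diet. It rose by 2.40 ± 0.50 (adjusted p = 0.0038), and all diet values were below the filter level. Agt, angiotensinogen, read 18931, 26613 and 22205 against 12194, 13949, 14885 and 9700, a rise of 0.84 ± 0.17. Scg5, a chaperone of a prohormone convertase, fell by 1.88 ± 0.33 to Targretin values of 46.9 to 128, all below the filter level. Csn1s1, a milk casein, rose by 2.81 ± 0.69, but its Targretin values ran from 369 to 2239, and it did not pass without Targretin array 1. Of its 4 diet values only 1 was above the filter level. Selenop, the selenium carrier of plasma, fell by 1.61 on a dimmer probe set (212 against 729), while its bright probe set read 26124 against 31289 and did not pass (-0.28, adjusted p = 0.28).

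Of 66 genes of collagen, matrix and cell adhesion, 1 rose and 7 fell. Fn1, fibronectin, read 14824, 15555 and 15575 with Targretin against 22308, 23194, 24464 and 25061 with diet, and fell by 0.63 ± 0.13 on the brightest of 5 probe sets; the other 4 did not pass. Sdc2, a heparan sulfate proteoglycan, fell by 0.98 ± 0.16 and Lama3, a laminin chain, by 1.18 ± 0.25. All Targretin values of Lama3 were below the filter level. Sparcl1 fell by 1.27 ± 0.30 and did not pass without Targretin array 2. Sparc, a matrix-binding glycoprotein, rose by 1.28 ± 0.28, from 10440 ± 1837 to 25182 ± 1694. Of its 3 probe sets, 2 passed.

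**Figure D3:**
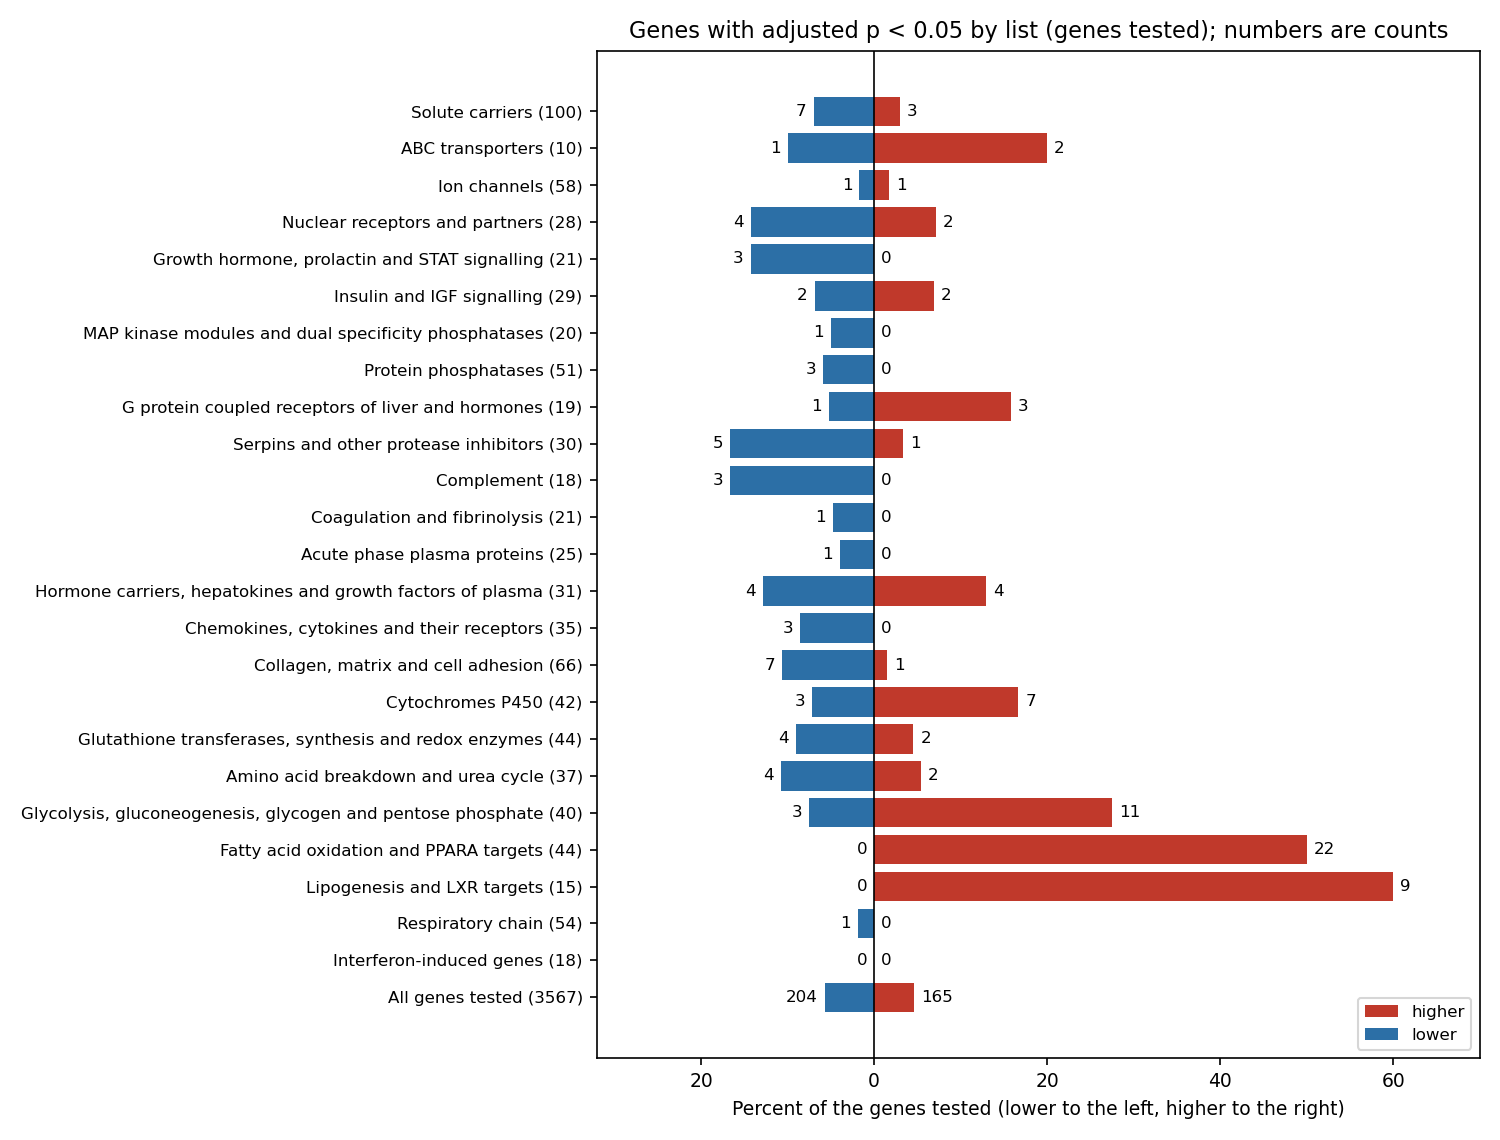
Share of the genes tested in each list drawn that passed higher (red, right) or lower (blue, left), in percent. Counts are at the bar ends, with the number tested in parentheses. The lists drawn are a selection, and the counts for clock and chaperone genes are given in the text. The bottom bar gives all 3567 genes tested, 165 higher and 204 lower; the lists of fatty acid oxidation (22 higher, 0 lower) and lipogenesis (9 higher, 0 lower) stand far to the right.

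At the first step of glutathione synthesis both subunit genes fell, 1 of them on 2 of 3 probe sets. Glutamate-cysteine ligase, the rate-limiting enzyme of glutathione synthesis, has a catalytic subunit, Gclc, and a modifier subunit, Gclm. Gclc read 319, 52.7 and 170 with Targretin against 1731, 1255, 1854 and 955 with diet, a fall of 2.93 ± 0.64 (adjusted p = 0.0054). Only 1 of the 3 Targretin arrays was above the filter level for Gclc. Gclm read 488, 431 and 683 against 2223, 1693, 1579 and 1586, and fell by 1.67 ± 0.24 (adjusted p = 2e-04). On these probe sets both subunits were separated from diet on every array, as were 24.6% of all probe sets tested. Another Gclm probe set fell by 1.04. The brightest of the 3, which list counts use, did not pass (-0.62, limma adjusted p = 0.12). Gsr, glutathione reductase, fell by 0.76 ± 0.18 on the brightest of 3 probe sets and did not pass without Targretin array 2. A dimmer Gsr probe set fell by 1.42 and the last did not pass (-0.29, limma adjusted p = 0.56). In the whole list of 44 glutathione and redox genes, 2 rose and 4 fell, with a median of -0.03, and without Targretin array 2, 0 rose and 1 fell. Nfe2l2 (NRF2), the factor that activates these synthesis genes, was examined after these values were seen. It read 679, 727 and 909 against 1732, 1405, 1265 and 1581, a fall of 0.92 ± 0.16, and of 1.29 on its other probe set.

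The 250 bases before the RefSeq start of Gclm (GRCr8, chr2:213031885-213032134, plus strand) are shown because they hold 1 match to TGACNNNGC, the core of the antioxidant response element that NRF2 binds. It begins 172 bases before the start and reads on the opposite strand, in capitals.
Gclm: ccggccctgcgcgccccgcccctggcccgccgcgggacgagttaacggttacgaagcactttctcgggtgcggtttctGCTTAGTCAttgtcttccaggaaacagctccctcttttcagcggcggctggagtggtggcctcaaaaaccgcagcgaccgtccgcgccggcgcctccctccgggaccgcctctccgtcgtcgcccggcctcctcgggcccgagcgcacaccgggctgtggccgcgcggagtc

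Searched on both strands, TGACNNNGC was present in 375 of 2766 windows (13.6%), in 16 of 132 genes that rose (12.1%) and in 21 of 165 that fell (12.7%). A single site can match both this motif and AGGTCA, which begins with TGAC when read on the opposite strand.

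Amino acid enzymes changed in both directions. Of 37 genes of amino acid breakdown and the urea cycle, 2 rose and 4 fell. Only 2 fell without Targretin array 2 or diet array 3, and only 1 rose without Targretin array 1 or 3 or diet array 2 or 3. Tdo2, which opens the ring of tryptophan, read 7372, 5729 and 8809 with Targretin against 25683, 25411, 24053 and 25647 with diet, and fell by 1.80 ± 0.14 (adjusted p = 2.4e-07). Kynu, kynureninase, acts further down the same route. It rose, from 4924, 6440, 6639 and 6976 to 13465, 16008 and 14191, by 1.22 ± 0.16. Asl, of the urea cycle, fell by 0.69 ± 0.15 on 1 of 2 probe sets. Bhmt, which remethylates homocysteine with betaine, rose by 1.22 ± 0.18, from 13345 ± 2444 to 31093 ± 5696. Cdo1, which oxidises cysteine on the way to taurine, fell by 0.86 ± 0.17 and by 1.26 on its other probe set, while the taurine carrier Slc6a6 rose as given above.

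Enzymes of steroids and foreign compounds changed in both directions. Of 42 cytochromes P450, 7 rose and 3 fell. Cyp17a1, a steroid hydroxylase and lyase, read 3513, 2239 and 4238 with Targretin against 56.0, 275, 173 and 171 with diet, a rise of 4.10 ± 0.41. Only 1 of the 4 diet arrays was above the filter level for Cyp17a1, so the size of its rise is uncertain. Cyp2b2, the classic CAR target, read 20970, 35822 and 41044 against 1703, 2059, 2258 and 2120, a rise of 3.93 ± 0.60. Near-identical Cyp2b copies may share its probes. Cyp1a2 fell by 1.23 ± 0.16, from 26905 ± 1850 to 11772 ± 3377, with all 3 probe sets lower. Cyp3a18 fell by 1.92 ± 0.22.

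Hsd17b2, which inactivates estradiol and testosterone, read 3922, 3304 and 4427 with Targretin against 14417, 16985, 13102 and 13223 with diet. It fell by 1.89 ± 0.23 (adjusted p = 4.1e-05). Fmo1, a flavin monooxygenase, fell by 1.81 ± 0.20, Acsm2, a medium-chain acyl-CoA synthetase, by 1.76 ± 0.24, and Hao2, a peroxisomal hydroxy acid oxidase, by 1.67 ± 0.26. For each of these 3 genes the groups did not overlap, which held for 24.6% of all probe sets tested. Of 30 genes known for a growth hormone or sex pattern in rat liver, 4 rose and 6 fell; without Targretin array 2 only 2 rose. Ugdh, which makes UDP-glucuronic acid, fell by 1.14 ± 0.15 on the brighter of 2 probe sets, and Sult1c2a, a sulfotransferase, by 1.22 ± 0.25. For Sult1c2a only 1 of the 3 Targretin arrays was above the filter level. Rdh7, a retinol dehydrogenase, fell by 1.15 ± 0.18, whereas Aldh1a1, which oxidises retinal, rose by 0.98 ± 0.22 and Adh4, a retinol-active alcohol dehydrogenase, by 1.10 ± 0.26. Adh4 did not pass without Targretin array 3.

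A few further genes were examined after their values were seen. Xdh, the enzyme that makes uric acid, read 1054, 1009 and 1185 with Targretin against 3660, 3356, 3509 and 3454 with diet, a fall of 1.66 ± 0.21. Dio1, which activates thyroid hormone in liver and is itself induced by it, read 1245, 910 and 1575 against 2739, 2184, 2715 and 2869, a fall of 1.08 ± 0.20. Its second probe set did not pass (-1.21, adjusted p = 0.093). Alpl, tissue-nonspecific alkaline phosphatase, rose by 1.17 ± 0.15, and by 2.77 on its other probe set. These 3 genes were chosen because they changed, so they say nothing of how often such genes did.

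Glucose and lipid genes rose more often than they fell. Of 40 genes of glycolysis, gluconeogenesis, glycogen and the pentose phosphate route, 11 rose and 3 fell, with a median of 0.26; without Targretin array 1 or 2, 6 rose and 2 fell. Gckr, the regulator of glucokinase, rose by 0.77 ± 0.16, Tkt, transketolase, by 0.97 on both probe sets, and Pdk1, a kinase that restrains pyruvate dehydrogenase, by 1.21 ± 0.22. Of 44 genes of fatty acid oxidation and PPARA targets, 22 rose and 0 fell (median 0.55), and of 15 of lipogenesis and LXR targets 9 rose and 0 fell (median 1.28). Acacb, the mitochondrial acetyl-CoA carboxylase, rose by 2.91 ± 0.40, from diet values of 84.2 to 217 that were all below the filter level. In contrast 53 of 54 respiratory chain genes did not pass. Other lists leaned toward falls. Among 8 circadian clock genes 4 fell and 0 rose, with a median of -0.69, and fits without 1 array gave 3 to 4 falls. For chaperones and the response to misfolded proteins, 7 of 24 passed lower and 0 higher (median -0.45). Fits without 1 array left 3 to 6 of these falls.

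Probe sets of one gene disagreed for some of the largest differences. Kctd13 rose by 4.86 on 1 of 3 probe sets, with signals of 62907, 76676 and 7855 on the Targretin arrays and 917 to 1357 on the diet arrays. The other 2 did not pass (0.94 and -0.25), and the third Targretin array stood far below the first pair. Ptms, parathymosin, rose by 2.17 ± 0.32 on its dimmest probe set, while 2 brighter ones did not pass (0.54 and 0.25). Mpv17l fell by 1.77 on 1 of 2 probe sets. Smarca4, an ATPase of chromatin remodelling with 1 probe set tested, fell by 2.36 ± 0.44, from 357 ± 50.8 to 39.5 ± 15.6. For these falls of Mpv17l and Smarca4, all Targretin values were below the filter level, so their sizes are uncertain. In all, 120 passing probe sets had no single gene name. The one with the deepest fall fell by 5.71 ± 1.16 and read 25.5 to 32.2 with Targretin and 632 to 7388 with diet.

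Markers of other cells were checked beside these changes. Of 13 markers of Kupffer cells, macrophages and antigen presenting cells, 5 fell and 0 rose, with a median of -0.52; without Targretin array 1 only 2 fell. All 5 are genes of class II antigen presentation. Cd74, the invariant chain, read 1397, 2409 and 1895 with Targretin against 5102, 5907, 5869 and 4666 with diet, a fall of 1.51 ± 0.23, and all 4 of its probe sets fell. RT1-Da fell by 1.26 ± 0.22. The Kupffer cell lectin Clec4f read 6003 ± 1356 (SD, n = 3) against 5273 ± 641 (SD, n = 4), a difference of 0.17 (limma adjusted p = 0.65), and the complement gene C1qb, made by macrophages, read 4663 against 4662. A second C1qb probe set read 2986 against 4459 and fell by 0.56 ± 0.17, which did not pass in 6 of the 7 fits without 1 array. The summed marker signal was 26298 to 32148 against 39696 to 44617, and that of the 8 markers that did not pass, 18069 to 22956 against 20471 to 23916, overlapped. In bulk tissue, fewer cells of a type and less RNA per cell cannot be told apart.

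The summed signal of 12 stellate cell and fibroblast markers was 35584 to 39997 with Targretin and 22854 to 25285 with diet. Of these only Sparc rose, and Sparc carried the gap: the sum of the 11 others was 10837 to 12947 against 12448 to 14194, and overlapped. Col1a1 read 806 against 777 on its brightest probe set. Of 8 endothelial markers only Flt1 rose, and the summed signal, 6378 to 7661 against 6472 to 7031, overlapped. Erythroid markers ran from 28730 to 56412 with Targretin and 56344 to 101330 with diet. Of these 4, 0 passed (limma), with 1 at an unadjusted p under 0.05. Hbb was near the threshold (-1.02, limma adjusted p = 0.052), while Slc4a1 stood at 0.45 (limma adjusted p = 0.31). With quantile normalization, a replicate block, array weights or only the Targretin and diet arrays, 1 of the 4 passed lower. The summed signal of 4 adipocyte markers was 8197 to 9099 against 5387 to 7298, and 0 passed (limma), with 2 at an unadjusted p under 0.05. Neutrophil, lymphocyte, cholangiocyte, muscle and pancreatic marker sums overlapped. The part of blood and cell mixture in the gene changes was not tested.

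The same genes had other values in the livers of rats given the other agents, which share the 4 diet arrays and were fed rather than gavaged. For Slc6a6 the difference from diet was 3.66 with Targretin, 0.81 with 9cRA and 0.31 with 4HPR. For Abcb11 the values were 1.15, 0.02 and 0.12, for Ccnd1 1.95, -0.33 and -0.52, and for Hsd17b2 -1.89, -0.02 and 0.07. For Gclc they were -2.93, -2.02 and -1.97, and for Hao2 -1.67, -1.92 and -2.14. Flt1 stood at 1.74, 1.36 and 1.07. Doses and routes differ, so no test between agents was made.

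Whether the change in liver differed from that in lung was tested in a fit of all 43 arrays over 5120 probe sets. The difference passed for 103 probe sets (2.01%), 68 with a positive value (1.33%) and 35 with a negative one (0.684%). The negative count was 21 without diet liver array 3, 22 without diet lung array 3 and 18 without diet lung array 4. Among the 109 genes described here, 75 were tested in this fit and 20 passed. These genes were picked partly for large differences in liver or small p-values between organs. Their count therefore cannot be compared with the 2.01%. Atp1b1 moved in opposite directions. It rose by 1.46 in liver, while in lung it read 7818 ± 1381 (SD, n = 3) with Targretin and 19055 ± 5210 (SD, n = 3) with diet, a difference of -1.25. The difference between organs was 2.71 ± 0.32 (adjusted p = 5.2e-07, limma). Dact2 differed by 3.35 ± 0.42, with lung signals of 1161 ± 253 and 1211 ± 253, so the Targretin livers reached the signal range of both lung groups. Aqp9 differed by -1.55 ± 0.29, Fmo1 by -2.04 ± 0.35, Lgr4 by -2.20 ± 0.47 and Paqr7 by 2.21 ± 0.40. Cd74 differed by -1.45 ± 0.37, with 25779 ± 2269 and 27399 ± 7653 in lung. Il1b was at -1.03 in liver and 0.99 in lung. Its other probe set did not pass for the difference between organs (-1.41, limma adjusted p = 0.094).

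**Figure D4:**
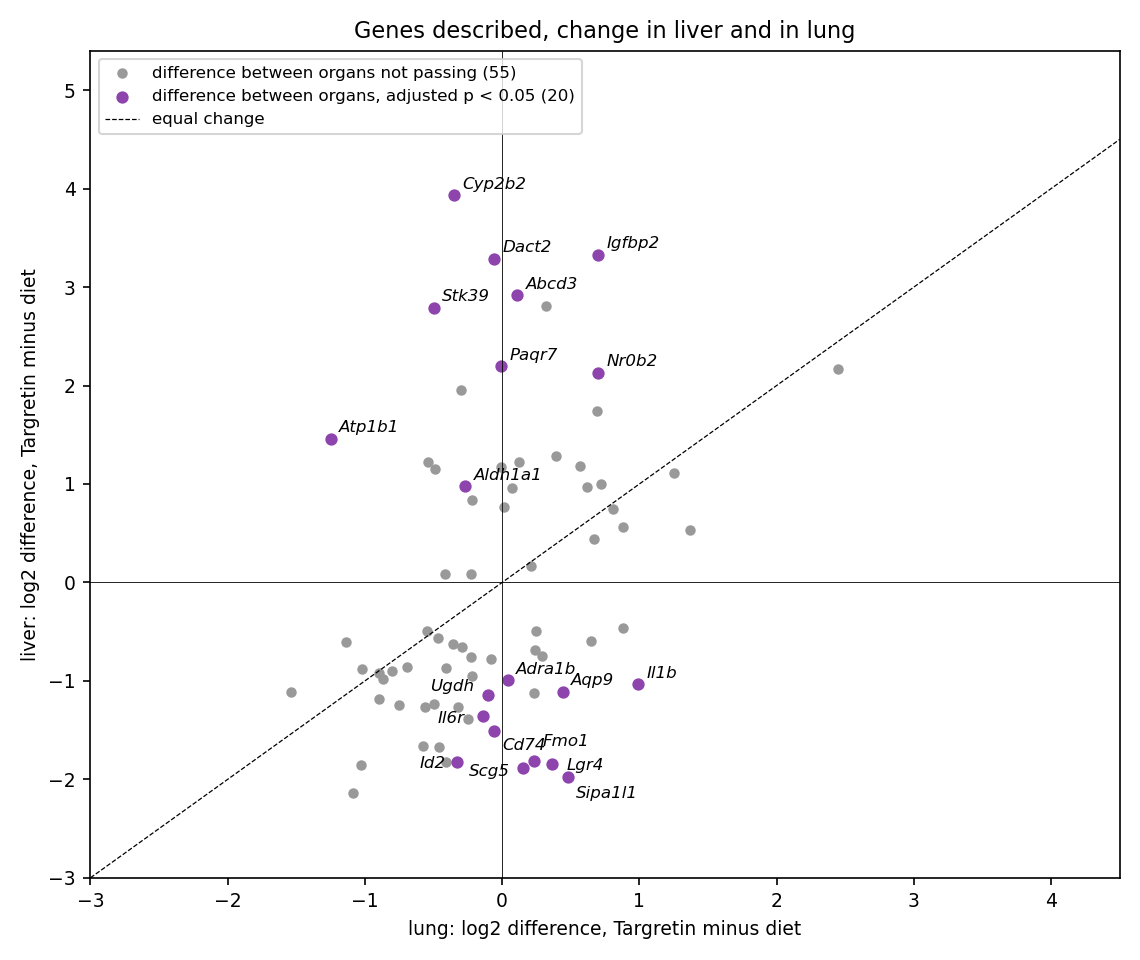
For 75 of the genes described, the log2 difference, Targretin minus diet, in liver (vertical) against that in lung (horizontal), with a dashed line of equal change. The genes were picked partly for large differences in liver or small p-values between organs. Purple points (20) differ between the organs at an adjusted p under 0.05 and are named; Atp1b1 lies in the upper left (1.46 in liver, -1.25 in lung) and Il1b in the lower right (-1.03 and 0.99).

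For mammary gland the difference passed for 695 probe sets (13.6%), positive for 268 (5.23%) and negative for 427 (8.34%), but the diet mammary gland arrays carried liver transcripts. Ttr, a plasma protein made by hepatocytes, read 11260 to 15078 on the 4 diet mammary gland arrays and 23.7 to 183 on the 3 Targretin ones. Alb read 11379 to 43645 against 1497 to 4725. In liver Ttr read 49632 to 72860 with Targretin and 55049 to 65469 with diet. The part of these levels in the differences from mammary gland was not tested. One diet lung array also carried liver transcripts, with Ttr at 3794 against 79.9 and 122 on the others. Without that array 108 probe sets differed between liver and lung.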

How the data were processed

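RNA was measured on Affymetrix rat arrays, 1 array per sample. The deposited values are intensity values on a linear scale, MAS5 signals per the submitters' processing notes; the MAS5 version and any detection call were not given in the sources used here. The 2% trimmed mean was 1501.78 to 1503.29 on every array, so no scaling was added. The number of arrays limits the precision. Of 8799 probe sets 59 controls were left out, and 3 values were 0. The platform annotation gave 7006 probe sets 1 gene, 308 several and 1426 none; 6985 had a gene ID in the RefSeq table and 0 symbols changed.

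Signals became log2(signal + 38.1), where the constant is the 10th percentile over all arrays. Tested probe sets exceeded their array's 40th percentile on at least 3 liver arrays. All 15 liver arrays were fitted in 4 groups with limma 3.58.1 in R 4.3.3 (lmFit, eBayes with trend), and organ differences in all 43 arrays over probe sets passing the filter in every organ. No set test was run: lists are described by counts and medians over 1 probe set per gene, the brightest. Named genes use the brightest passing probe set. They come from the 30 largest rises and falls, up to 8 passing and 3 non-passing members of each list, genes whose probe sets disagree, and the 8 smallest p per organ difference; not all of these are named, and most named genes are ones passing in every fit without 1 array. Nfe2l2, Cyp7a1, Dio1, Xdh, Alpl, Clec4f, C1qb and Col1a1 were added after their values were seen. The comparison, the lists and the rules were chosen with earlier results of these data known. On simulated data for Targretin against diet in liver, over 6084 probe sets, 17.9% of 1.5-fold, 41.8% of 2-fold and 84.8% of 4-fold changes were recovered, with 5.88% false calls. For liver against lung, over 5120 probe sets, 74.2% of 4-fold changes were recovered. Arrays of a group differed by a median of 0.243 to 0.335 on the log2 scale, so no array was a copy of another. The spread between repeat arrays of 1 RNA is not known here, so these values cannot tell repeats from separate rats. Promoter windows are from RefSeq, build GRCr8. Alternatives were quantile normalization, no filter, a filter at the 60th percentile, a constant 4 times larger, a replicate block, array weights, only the Targretin and diet arrays, and leaving out each array. Not analysed here were probe sets with several genes, by name.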

Additional observations from a re-analysis of the deposited data

Results flagged for a closer look

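The change with Targretin differed between liver and lung for 20 of the genes described, which were picked partly for such differences. Values are liver change minus lung change on the log2 scale (limma, adjusted p under 0.05). Positive differences were 4.28 for Cyp2b2, 3.35 for Dact2, 3.29 for Stk39, 2.81 for Abcd3, 2.71 for Atp1b1, 2.63 for Igfbp2, 2.21 for Paqr7, 1.42 for Nr0b2 and 1.25 for Aldh1a1. Negative ones were -2.47 for Sipa1l1, -2.20 for Lgr4, -2.04 for Scg5 and for Fmo1, -2.02 for Il1b, -1.55 for Aqp9, -1.49 for Id2, -1.45 for Cd74, -1.22 for Il6r, -1.04 for Ugdh and -1.03 for Adra1b. Cyp2b2 read 38044 ± 7764 (SD, n = 3) on the diet lung arrays, so its probe set was already bright in untreated lung. Other probe sets tested did not pass for Abcd3 (0.27), Stk39 (-0.80), Nr0b2 (1.01), Il1b (-1.41), Sipa1l1 (-0.40) and Cd74. Those of Atp1b1 and Igfbp2 passed in the same direction.

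Against mammary gland the difference passed for 32 genes, beside the high liver transcripts of the diet mammary gland arrays given above, whose part was not tested. Transport and receptor genes gave 3.73 for Abcb11, 2.41 for Abcd3, 2.11 for Slc10a1, 2.03 for Atp1b1, -1.10 for Aqp9, -1.07 for Slc37a4, -1.25 for Slc41a2 and -2.45 for Tfrc. Signalling genes gave 2.68 for Stk39, 2.66 for Dact2, 2.29 for Avpr1a, 1.88 for Nr0b2, 1.70 for Paqr7, -1.55 for Id2, -1.82 for Lgr4 and -1.97 for Sipa1l1. Secreted and immune genes gave 3.87 for Pzp, 2.56 for Sparc, -1.48 for Il33, -1.63 for Scg5, -2.04 for C1qb and -2.75 for Cd74. Enzymes gave 5.82 for Cyp2b2, 4.14 for Bhmt, 1.86 for Kynu, 1.75 for Gckr, 1.59 for Aldh1a1, 1.29 for Cyp2b15, 1.06 for Alpl, -0.86 for Ugdh, -0.89 for Asl and -1.71 for Gsr. Slc10a1, which did not pass in liver, read 582 on the diet mammary gland arrays and 111 on the Targretin ones. Other probe sets tested against mammary gland did not pass for Abcd3, Stk39, Sipa1l1, C1qb, Sparc, Alpl and Asl. Those of Atp1b1, Slc37a4, Nr0b2, Gsr and Cd74 passed in the same direction.

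One of the 4 diet liver arrays stood apart for 11 of 109 genes checked, where chance gives about 5.5 (1 in 20). Diet array 2 was highest for Tfrc (738), Hdc (153), Gdf15 (96.5), Hao2 (1864), Sult1c2a (767) and Mpv17l (1025). Diet array 3 was highest for Ppard (1305) and lowest for Tdo2 (24053). Diet array 4 was highest for P2ry2 (2914) and lowest for Gsr (1581), and diet array 1 was highest for Ptms (711). Of the 10 genes that passed with all arrays, Tfrc alone did not pass once that diet array was left out. Ppard, which did not pass with all arrays, passed without diet array 3 (a rise of 0.54, limma adjusted p = 0.046).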

How the results depend on the processing

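In Targretin against diet in liver, 678 probe sets passed, and the other settings gave 587 to 901. Leaving out each array in turn gave 420 to 585 in all, 189 to 269 higher and 231 to 323 lower, lowest without Targretin array 2. For liver against lung (103 probe sets, 68 positive and 35 negative) array quality weights gave 263, 140 and 123. Leaving out each array gave 72 to 121 in all, 50 to 75 positive and 18 to 46 negative. For liver against mammary gland (695, of which 427 negative) array quality weights gave 664 negative, and leaving out each array gave 518 to 758 in all. The cause of these shifts was not tested. Of 101 named genes that passed, 76 passed in every setting that tested them, and 94 in every setting other than leaving out an array; the 7 others were Igf1, Igfbp1, Il1b, Serpina3n, Cst3, Serping1 and C1qb. Leaving out arrays, differences near 0 changed sign for Slc10a1 (-0.003 to 0.17, negative without Targretin array 3), Clec4f (-0.004 to 0.29, negative without Targretin array 2) and Col1a1 (-0.031 to 0.21, with -0.018 and -0.031 without diet arrays 1 and 2). The main fit did not pair arrays of the same number, because the labels do not say that equal numbers share an animal or a day. Residuals of same-numbered Targretin and diet arrays correlated at -0.000861, 0.0573 and -0.0549. Arrays of different numbers were not compared, so these values cannot settle whether a pairing existed. With the replicate block 587 probe sets passed in liver, 107 for liver against lung and 714 for liver against mammary gland. Low signals limit the dim genes: without detection calls, a signal under the filter level, such as Slc6a6 or Gdf15 with diet, has an uncertain size of change.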
